A study of Mus musculus with 6 samples.

Results

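Immediate early genes are the first genes that cells transcribe after a signal reaches them, without the need for new protein. Many are switched on when ERK and its downstream kinases act on SRF and its ETS partners at CArG boxes, or on CREB at cAMP response elements. Their transcripts are as a rule short-lived, and most encode transcription factors, such as the Fos and Jun proteins that pair to form AP-1, or proteins that end the response again. A list of 32 such genes was taken here by gene symbol, and 31 of them were measured, on 33 of the 22206 probe sets of the array and among 19505 named genes. Gdf15 was not analysed here.

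The cells were ID8, a line of mouse ovarian cancer cells, and every culture had been without serum for 24 h. In the CCL6 group, recombinant CCL6, a chemokine made by macrophages that acts on the receptor CCR1, was added to serum-free medium at 200 ng/mL for 6 h. The other group was serum-starved too and left unstimulated. Each group held 3 biological replicates on 1 Clariom S array each, all from 1 cell line, with 1 dose and 1 time. The arrays were made to find pathways that CCL6 activates in ovarian cancer cells. At 6 h a first wave of transcripts may have come and gone, and no earlier time was analysed here.

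SRF binds the CArG box, which is CC, then a run of A or T letters, then GG, and the promoters of the listed genes were searched for it. RefSeq windows of 300 bases, reaching from 250 before to 50 after an annotated start (GRCm38.p6), were used for 24 of the 31 genes. Those of Egr1, Egr3, Fosl1, Ier2, Klf10, Myc and Phlda1 were not analysed here. A CArG box stood in 3 of the 24 genes (12.5%), Srf, Zfp36 and Egr2, against 1.81% of 27025 genes with a window. The cAMP response element TGACGTCA stood in Btg2, Errfi1 and Maff, also 12.5%, against 2.03% of all genes. The AP-1 letters TGAGTCA or TGACTCA were found in 1 gene, Csrnp1 (4.17%, against 5.95% of all genes), and the SP1 letters GGGCGG in 21 genes (87.5%, against 38.2%). Both strands were read, and a match is only a match of letters. Matches of different motifs may overlap, as those of SP1 and the CArG box do by 1 base in Zfp36. Genes with several starts, such as Egr2 with partly overlapping windows, had more letters to match.

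The 3 promoters with a CArG box in the window are shown because they carry the element to which SRF binds. That of Fos is shown because Fos had the largest difference of the list. Each line gives the 250 bases before the start, 5′ to 3′ along the gene, with CArG boxes in capitals. The line of Fos has no capitals, since neither the CArG box nor the full cAMP response element was in this window. Bases more than 250 before a start were not searched, so an element farther upstream of Fos or another gene would be missed.
Srf, chr17:46556163-46556412 (- strand): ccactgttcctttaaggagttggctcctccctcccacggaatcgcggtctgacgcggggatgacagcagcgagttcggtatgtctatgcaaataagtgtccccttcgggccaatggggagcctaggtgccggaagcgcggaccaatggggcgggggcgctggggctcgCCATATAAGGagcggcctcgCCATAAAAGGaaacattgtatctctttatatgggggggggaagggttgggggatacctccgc
Zfp36, chr7:28379229-28379478 (- strand): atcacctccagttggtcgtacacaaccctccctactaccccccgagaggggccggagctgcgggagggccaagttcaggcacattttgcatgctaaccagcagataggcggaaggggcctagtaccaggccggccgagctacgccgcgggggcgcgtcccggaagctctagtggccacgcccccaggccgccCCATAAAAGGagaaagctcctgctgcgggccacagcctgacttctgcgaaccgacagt
Egr2, chr10:67537619-67537868 (+ strand): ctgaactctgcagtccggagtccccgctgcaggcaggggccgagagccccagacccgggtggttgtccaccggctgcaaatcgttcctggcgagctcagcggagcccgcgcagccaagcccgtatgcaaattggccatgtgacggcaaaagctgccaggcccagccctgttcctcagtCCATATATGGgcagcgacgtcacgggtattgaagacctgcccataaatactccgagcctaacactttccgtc
Fos, chr12:85473640-85473889 (+ strand): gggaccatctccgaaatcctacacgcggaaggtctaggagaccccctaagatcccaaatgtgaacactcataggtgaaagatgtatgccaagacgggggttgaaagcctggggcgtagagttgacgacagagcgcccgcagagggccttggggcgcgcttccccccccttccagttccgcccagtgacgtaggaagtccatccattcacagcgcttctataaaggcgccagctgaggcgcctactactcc
Srf held CCATATAAGG at position -82 and CCATAAAAGG at -62 from the start. Zfp36 held CCATAAAAGG at -58 and Egr2 held CCATATATGG at -72 in the window shown. An Egr2 window with another start, not shown, held CCTTTTTTGG at -72 from that start.

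The deposited values are log2 values from RMA, in which a step of 1 is a doubling, and a probe set was taken as above background when a group mean exceeded 4.85. That level is the 95th percentile of 1452 probe sets of olfactory, vomeronasal and taste receptor genes. Array medians ran from 5.42 to 5.49. Keratin, mesothelial and related markers of the line were above the level in 8 of 9 cases (Epcam was not), leukocyte markers in 0 of 6 and endothelial markers in 0 of 3, and of 5 fibroblast markers Dcn and Col1a1 were above it. The mean leukocyte marker value was 3.59 to 3.75 on CCL6 arrays and 3.56 to 3.64 on unstimulated arrays. The first principal component, with 50.8% of the variance, did not follow treatment but set CCL6 replicates 1 and 2 and unstimulated replicate 3 apart from CCL6 replicate 3 and unstimulated replicates 1 and 2. The mean of 22 proliferation genes moved with it, at 12.33, 12.71 and 11.07 on the CCL6 arrays and 11.26, 11.41 and 12.66 on the unstimulated arrays. These arrays are called the high set and the low set of proliferation genes below. The sets were drawn from these same values, so differences within them and fits with them as a block are descriptions. In the high set the unstimulated group was replicate 3 alone, and in the low set the CCL6 group was replicate 3 alone.

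Over the whole list, 17 genes were higher and 14 lower in CCL6-treated cells, and the median log2 difference was 0.09, beside -0.01 for all probe sets. By family, medians were -0.33 for Fos, 0.11 for Jun, 0.10 for Egr, 0.13 for Ier, -0.05 for Klf and 0.05 for Nr4a. They were 0.09 for other transcription factors, -0.23 for genes of mRNA decay and 0.22 for genes of growth and survival. Of the 33 probe sets, 30 were above background in at least 1 group, and the 3 others were 2 of the 3 probe sets of Egr3 and that of Nr4a3. With limma, 0 of 33 passed an adjusted p under 0.05, as did 0 (0%) of all 22206 probe sets, and every listed probe set had an adjusted p of 0.999. At an unadjusted p under 0.05 there were 2, Fos and Ier2, both lower in CCL6, where 1.81% of all probe sets were lower and 1.28% higher at that threshold. By the methods' t-test, run on the same values, 0 of 33 were under 0.05 before adjustment. The count of 2 became 0 without unstimulated replicate 1 and 4 without unstimulated replicate 3. Those 4 were Fos, Egr1 and Zfp36, lower in CCL6, and Myc, higher, and Ier2 was not among them. The count was also 0 without CCL6 replicate 3, and 1 without CCL6 replicate 2. The groups did not overlap for Fos, which was lower, and for Nr4a1, which was higher, against 4.41% of all probe sets that were lower without overlap and 3.77% that were higher. Without unstimulated replicate 3 the groups of 11 probe sets did not overlap. Leaving out an array can only keep or raise this count, and the share of all probe sets was not analysed here for such fits. An exact permutation test of a single gene cannot fall below 0.1 with 3 arrays a group. The range over the 6 arrays had a median of 1.04 for the 30 probe sets above background and 0.99 for all such probe sets, so that the listed genes varied from array to array about as much as the rest.

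**Figure D1:**
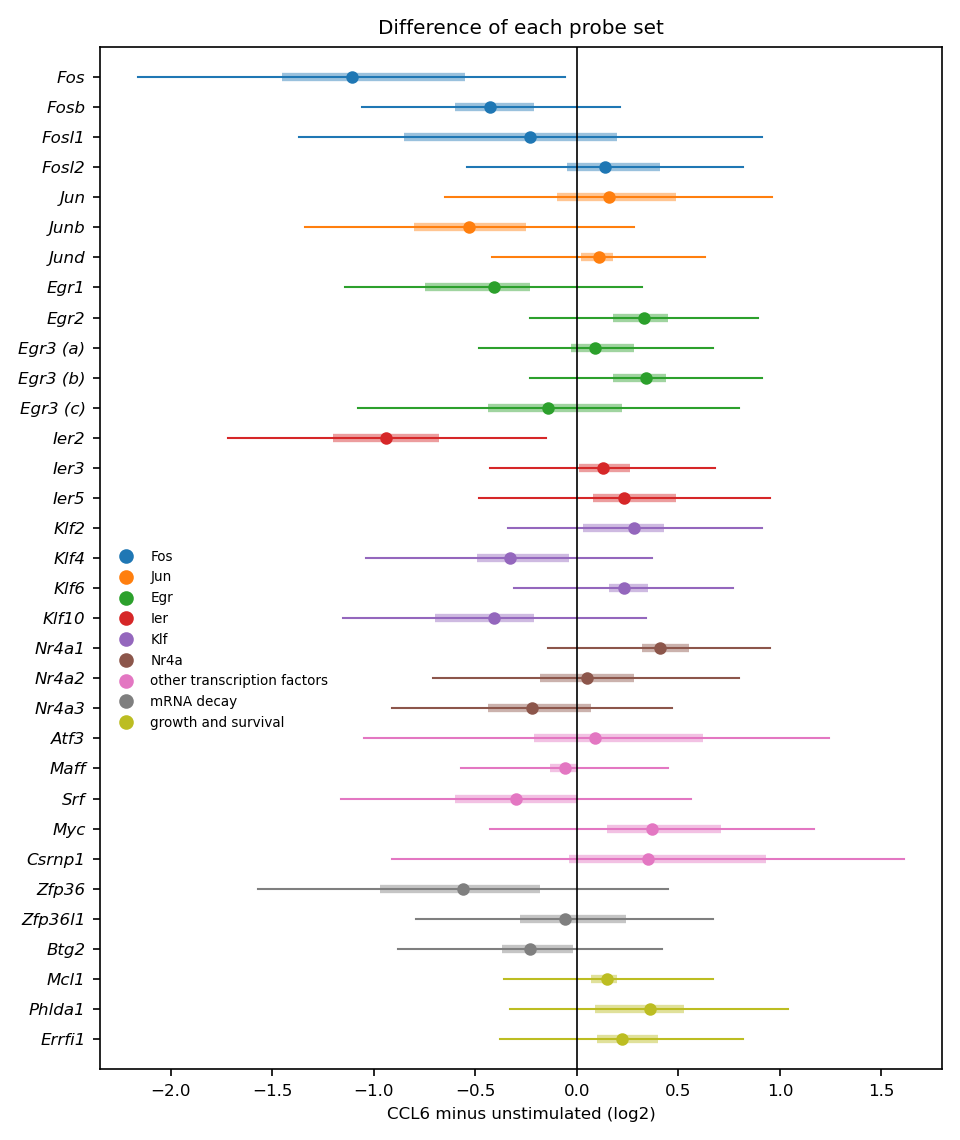
Log2 difference, CCL6 minus unstimulated, of each of the 33 probe sets (points, coloured by family), with the 95% interval from limma (thin lines) and the range over 6 fits that each leave out 1 array (thick bars); Egr3 has 3 probe sets, a to c. Fos at -1.11 and Ier2 at -0.94 lie farthest from 0, and theirs are the only intervals that do not reach it, before any adjustment for the number of tests.

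The Fos family, whose proteins need a Jun partner to bind DNA, had 3 genes lower and 1 higher after CCL6, with a median of -0.33. Fos itself read 5.46, 5.79 and 5.04 after CCL6, against 7.65, 6.10 and 5.85 in unstimulated cells. Unstimulated replicate 1 stood far above the other 5 arrays, and the lowest unstimulated value lay only just above the highest CCL6 value. The means were 5.43 ± 0.38 after CCL6 and 6.54 ± 0.98 in unstimulated cells (SD, n = 3 each), a log2 difference of -1.11 (SE 0.46, 2.16-fold), with a limma 95% interval of -2.16 to -0.06 before adjustment and an adjusted p of 0.999. Its unadjusted p was above 0.05 in 3 of the 6 fits that each left out 1 array, with differences of -1.12 without CCL6 replicate 1, -0.91 without CCL6 replicate 3 and -0.55 without unstimulated replicate 1. Without unstimulated replicate 3 the difference was -1.45. The unadjusted p was also above 0.05 with the high and low sets as a block (-1.04) and when only probe sets above background were tested. Within the high set it was -0.23 and within the low set, which held unstimulated replicate 1, it was -1.84.

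Fosb, the closest relative of Fos in the family, read 4.31, 4.68 and 4.71 after CCL6, against 5.42, 4.92 and 4.64 in unstimulated cells. Its CCL6 mean was not above background, so the fold is a bound, at least 1.10-fold lower, with an adjusted limma p of 0.999. Here too unstimulated replicate 1 was the highest array, and the groups overlapped. Fosl1, which encodes Fra-1 and is itself a target of AP-1, read 10.45, 8.36 and 8.82 after CCL6, against 9.84, 9.18 and 9.31 in unstimulated cells. CCL6 replicate 1 was the highest of all arrays and CCL6 replicate 2 the lowest, so that the SD was 1.10 after CCL6 and 0.35 in unstimulated cells, and the log2 difference of -0.23 (SE 0.50) turned to 0.20 without CCL6 replicate 2. Fosl2, which encodes Fra-2, read 11.76, 12.06 and 11.62 after CCL6, against 11.52, 11.29 and 12.21 in unstimulated cells, with its highest value in unstimulated replicate 3.

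The Jun family supplies the partners of Fos in AP-1. Junb, which can restrain the action of Jun, read 10.66, 9.57 and 10.09 after CCL6, against 11.18, 10.33 and 10.40 in unstimulated cells. The groups overlapped because CCL6 replicate 1 lay above unstimulated replicates 2 and 3, and unstimulated replicate 1 was again the highest array. Its log2 difference was -0.53 (SE 0.35), with a limma 95% interval of -1.34 to 0.28. Jun read 9.86, 10.39 and 9.64 after CCL6, against 9.64, 9.30 and 10.48 in unstimulated cells, a difference of 0.16 (SE 0.35) that turned to -0.10 when the high and low sets entered the fit as a block. Jund, the member that many cells express without a stimulus, kept within 0.41 over all 6 arrays and had means of 14.25 ± 0.16 after CCL6 and 14.14 ± 0.14 in unstimulated cells (SD, n = 3 each).

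The Egr genes encode zinc finger factors that ERK signalling induces. Egr1 read 9.86, 10.11 and 9.74 after CCL6, against 10.69, 10.61 and 9.65 in unstimulated cells. Unstimulated replicates 1 and 2 lay above all CCL6 arrays and unstimulated replicate 3 below them, so the sign differed between the sets of arrays, at 0.34 in the high set and -0.91 in the low set. Over all arrays the log2 difference was -0.41 (SE 0.32), with a limma 95% interval of -1.14 to 0.32. Egr2 went the other way, with 6.97, 7.09 and 6.83 after CCL6, against 6.69, 6.87 and 6.33 in unstimulated cells. Its difference of 0.33 (SE 0.25) was 0.70 in the high set and 0.05 in the low set. Unstimulated replicate 3 was its lowest array, as for Egr1, and without that array the difference of Egr2 was 0.18. The 3 probe sets of Egr3 lay near or below background and disagreed in sign, at 0.09, 0.34 and -0.14, and only the second exceeded the level, with a CCL6 mean of 5.16 and a bound of at least 1.24-fold.

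**Figure D2:**
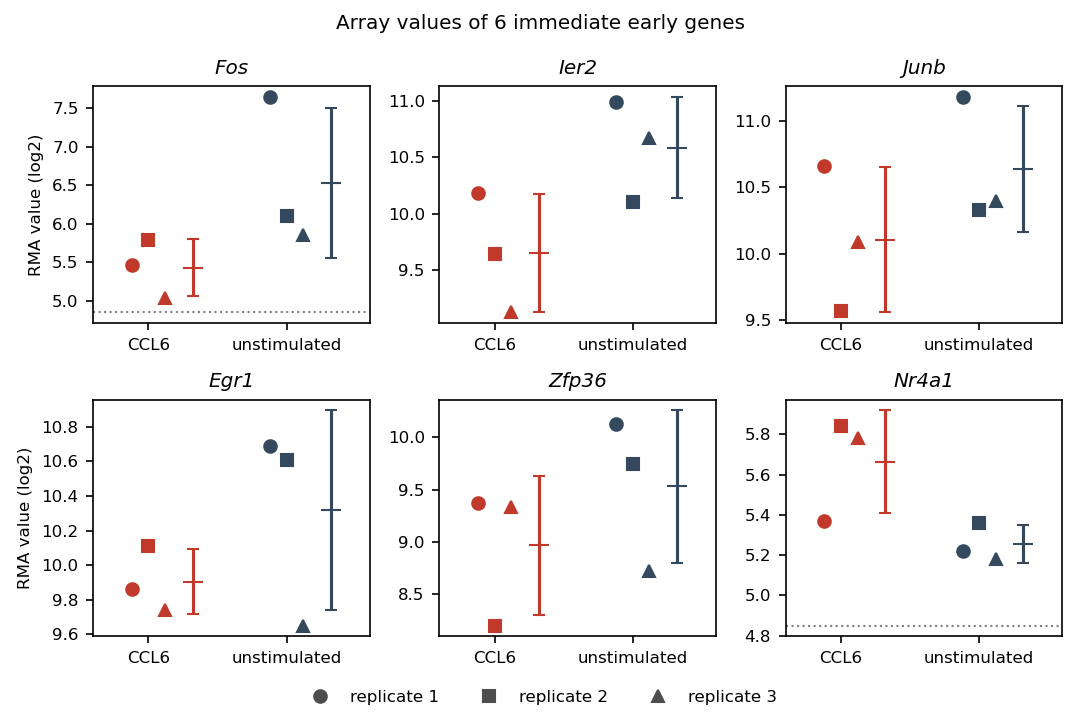
RMA values (log2) of Fos, Ier2, Junb, Egr1, Zfp36 and Nr4a1 on each array, CCL6 in red and unstimulated in blue, with symbols for the replicate number and bars for the mean ± SD (n = 3); the vertical axes differ between panels and do not start at 0, and the dotted line is the background level of 4.85. In all panels but that of Nr4a1 the highest value is that of unstimulated replicate 1, for example 7.65 for Fos.

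Of the Ier genes, Ier2, which encodes a small nuclear protein, read 10.18, 9.64 and 9.13 after CCL6, against 10.99, 10.10 and 10.67 in unstimulated cells. All CCL6 arrays but replicate 1 lay below all unstimulated arrays, and CCL6 replicate 1 exceeded unstimulated replicate 2 by a small margin. Means were 9.65 ± 0.53 and 10.59 ± 0.45 (SD, n = 3 each) in CCL6 and unstimulated cells, and the log2 difference was -0.94 (SE 0.35, 1.92-fold), with a limma 95% interval of -1.72 to -0.15 before adjustment and an adjusted p of 0.999. The difference was -0.76 in the high set and -1.42 in the low set, and with these sets as a block it was -1.09 (limma, adjusted p = 0.795). In fits that each left out 1 array it ran from -1.20 to -0.68, and 4 of these 6 fits (CCL6 replicate 2 or 3, or unstimulated replicate 1 or 3, left out) put its unadjusted p above 0.05. Ier3, which protects cells from apoptosis, read 15.24, 15.06 and 14.74 after CCL6, against 15.07, 14.80 and 14.78 in unstimulated cells. Ier5, which regulates the heat shock factor HSF1, read 8.05, 8.14 and 7.33 after CCL6, against 7.29, 8.04 and 7.49 in unstimulated cells, and both genes overlapped between groups.

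Krüppel-like factors bind GC-rich promoters. Klf10, which TGF-beta induces, read 11.80, 10.99 and 10.82 after CCL6, against 11.66, 11.22 and 11.94 in unstimulated cells (log2 difference -0.41, SE 0.33). Klf4, a factor of epithelial differentiation, read 12.43, 11.53 and 12.38 after CCL6, against 12.73, 12.19 and 12.42 in unstimulated cells, and its difference of -0.33 (SE 0.31) shrank to -0.04 without CCL6 replicate 2. Klf6 had means of 12.55 ± 0.17 after CCL6 and 12.32 ± 0.21 in unstimulated cells (SD, n = 3 each). Klf2, best known from endothelial cells, was close to background at 5.78, 5.07 and 4.99 after CCL6 and 4.92, 4.98 and 5.08 in unstimulated cells, and CCL6 replicate 1 alone stood out.

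The Nr4a genes encode orphan nuclear receptors that respond quickly to many signals. Nr4a1 read 5.37, 5.84 and 5.78 after CCL6, against 5.22, 5.36 and 5.18 in unstimulated cells. All values lay little above the background level, and only the gap between 5.37 and 5.36 separated the groups. The log2 difference was 0.41 (SE 0.24), with a limma 95% interval of -0.14 to 0.95, and it was 0.42 in the high set and 0.49 in the low set. Nr4a2 read 10.09, 9.19 and 9.67 after CCL6, against 9.58, 10.08 and 9.15 in unstimulated cells, with means that lay 0.05 apart. Nr4a3 was not above background on any array.

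Among the other transcription factors, values differed more within a group than between the group means. Atf3, a stress-induced partner of Jun proteins, read 9.00, 9.16 and 7.84 after CCL6, against 8.14, 7.96 and 9.62 in unstimulated cells. Csrnp1, a nuclear protein first described as an Axin target, read 6.91, 7.61 and 5.93 after CCL6, against 5.87, 5.91 and 7.62 in unstimulated cells. In both, CCL6 replicates 1 and 2 and unstimulated replicate 3 were high and the other 3 arrays low, as for the proliferation genes. Myc, the growth regulator, had the same split of arrays, with 15.27, 15.22 and 14.59 after CCL6, against 14.41, 14.22 and 15.34 in unstimulated cells. The log2 differences were 0.09 (SE 0.50) for Atf3, 0.35 (SE 0.55) for Csrnp1 and 0.37 (SE 0.35) for Myc, and with the sets as a block they were -0.37, -0.16 and 0.09.

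Srf, which encodes the factor that binds the CArG box, read 9.57, 9.57 and 8.70 after CCL6, against 9.58, 8.97 and 10.18 in unstimulated cells. Its difference was -0.30 (SE 0.38) over all arrays, but -0.61 within the high set and -0.58 within the low set. With the sets as a block it was -0.60 and came under the unadjusted threshold of 0.05, which it did not without the block (limma, adjusted p = 0.795 with the block). Since the sets were drawn from these same values, the fit with the block is a description and not an independent test. The other genes with a CArG box in their window, Zfp36 and Egr2, differed by -0.56 (SE 0.44) and 0.33 (SE 0.25). Maff, a small Maf protein without an activation domain, kept within 0.30 over the 6 arrays.

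All 3 members that act on mRNA decay had a negative difference (median -0.23), and there was no unadjusted p under 0.05. Without CCL6 replicate 3 the differences were -0.74 for Zfp36, 0.24 for Zfp36l1 and -0.02 for Btg2. Zfp36, or tristetraprolin, which brings decay enzymes to AU-rich messages, read 9.37, 8.20 and 9.33 after CCL6, against 10.13, 9.74 and 8.72 in unstimulated cells. The highest value was again unstimulated replicate 1 and the groups overlapped, since unstimulated replicate 3 lay below CCL6 replicates 1 and 3. The related Zfp36l1 read 15.08, 14.82 and 14.04 after CCL6, against 14.64, 14.45 and 15.02 in unstimulated cells. Btg2, an adaptor to the CCR4-NOT deadenylase, had means of 11.37 ± 0.36 after CCL6 and 11.60 ± 0.32 in unstimulated cells (SD, n = 3 each).

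For growth control and survival all 3 measured genes had a positive difference (median 0.22), with likewise no unadjusted p under 0.05. Phlda1, a pleckstrin homology-like protein, read 10.92, 10.20 and 10.05 after CCL6, against 9.72, 10.11 and 10.26 in unstimulated cells, a difference of 0.36 (SE 0.30) that was 0.09 without CCL6 replicate 1. Errfi1, or Mig-6, an inhibitor of the EGF receptor, had means of 11.21 ± 0.32 after CCL6 and 10.99 ± 0.24 in unstimulated cells (SD, n = 3 each). Mcl1, which blocks apoptosis, varied by 0.44 over the 6 arrays and had means of 13.87 ± 0.10 and 13.72 ± 0.15 in CCL6 and unstimulated cells (SD, n = 3 each).

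The arrays with the extreme values of each gene were counted after the values were seen. Unstimulated replicate 1 held the highest value of 7 of the 30 probe sets above background, namely Fos, Fosb, Junb, Egr1, Ier2, Klf4 and Zfp36, against 17.3% of all 12547 such probe sets on the array. All 7 were lower on average after CCL6, a direction that the choice of an unstimulated array favours. Unstimulated replicate 3 held the highest value of 9, namely Fosl2, Jun, Klf10, Atf3, Maff, Srf, Myc, Csrnp1 and Btg2, against 21.6% of all. CCL6 replicate 3 held the lowest value of 9, Fos and Ier2 among them, against 17.6% of all. Of the 33 probe sets, 11 were higher on all arrays of the high set than on any of the low set, against 12.7% of all probe sets, and 1, that of Fosb, was lower, against 10.6%. The 11 were Fosl2, Jun, Jund, Klf2, Atf3, Myc, Csrnp1, Zfp36l1, Btg2, Mcl1 and Phlda1. The sets came from these same values, so the counts are a description, and the part of the proliferation genes in them was not tested.

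**Figure D3:**
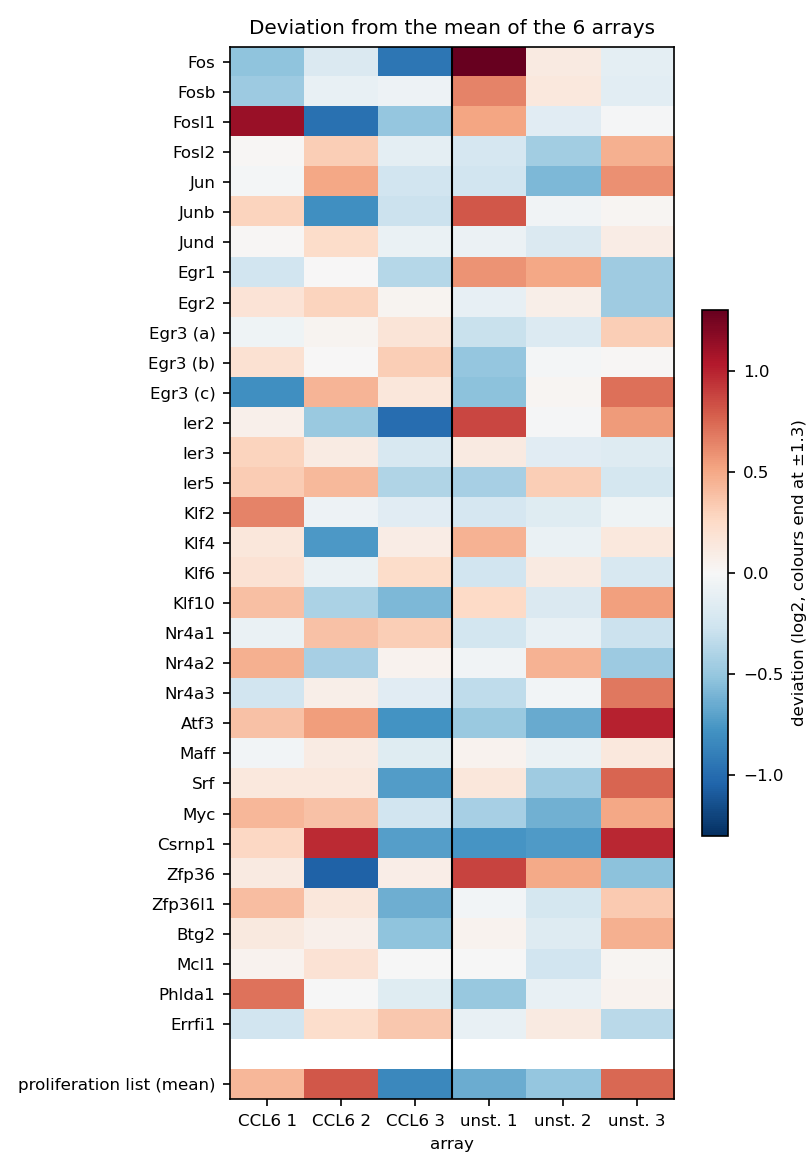
Deviation of each of the 33 probe sets from its mean over the 6 arrays (log2, red above and blue below), CCL6 arrays left of the line and unstimulated (unst.) arrays right of it, with the mean of 22 proliferation genes in the bottom row. Fos, Fosb, Junb, Ier2 and Zfp36 are reddest in unstimulated replicate 1, whereas Atf3, Myc and Csrnp1 are red in CCL6 replicates 1 and 2 and unstimulated replicate 3.

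**Figure D4:**
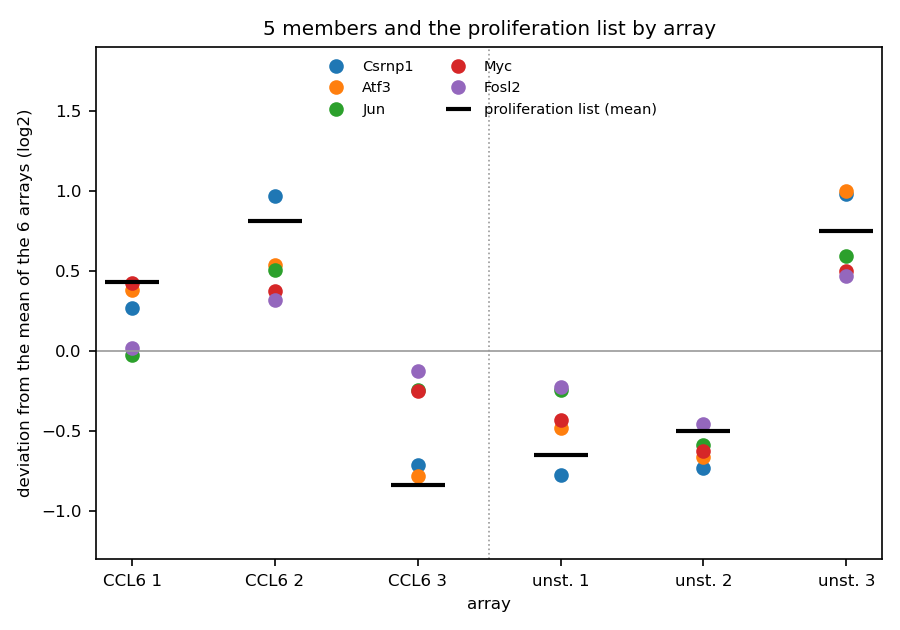
Deviation from the mean of the 6 arrays (log2) of Csrnp1, Atf3, Jun, Myc and Fosl2 (points) and of the mean of 22 proliferation genes (black bars), by array, CCL6 left and unstimulated (unst.) right. These genes were picked from the 11 probe sets higher on all arrays of the high set than on any of the low set. They therefore move with the bars by choice, and Fosb went the other way. The points lie at or above about 0 where the bar is at 0.43, 0.81 and 0.75, and below 0 where it is at -0.84, -0.65 and -0.50.

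Of 42 other immediate early genes, 22 were higher and 20 lower (median 0.03), and 0 had an adjusted p under 0.05 with limma. At an unadjusted p under 0.05 there were 3 higher and 1 lower, against 1.28% and 1.81% of all probe sets, and groups did not overlap for 5 higher and 2 lower, against 3.77% and 4.41%. The transcriptional repressor gene Bcl6 read 9.25, 9.40 and 8.98 after CCL6, against 7.63, 8.07 and 8.74 in unstimulated cells (log2 difference 1.06, SE 0.32, limma adjusted p = 0.999). The clock genes Per1 and Bhlhe40 differed by 0.67 (SE 0.28) and 0.57 (SE 0.24), and Id3, an inhibitor of basic helix-loop-helix factors, by -0.72 (SE 0.27). These 4 had the smallest p of the list among genes above background, and their groups did not overlap.

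Of 21 regulators of immediate early transcription, 10 were higher and 11 lower, with a median at 0 to 2 decimals. In this list 1 gene was higher at an unadjusted p under 0.05, against 1.28% of all probe sets, and 2 were higher without overlap, against 3.77%. Creb1, which encodes the factor that binds the cAMP response element, read 10.08, 10.38 and 9.97 after CCL6, against 9.22, 9.90 and 9.12 in unstimulated cells (log2 difference 0.73, SE 0.28, limma adjusted p = 0.999). Its coactivator gene Crtc3 differed by 0.47 (SE 0.24), and Crebbp and the ERK-activated kinase gene Rps6ka3 by 0.37 (SE 0.25) and 0.41 (SE 0.28). The genes with a cAMP response element in their window, Btg2, Errfi1 and Maff, differed by -0.23, 0.22 and -0.06.

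Of 16 genes for AP-1 partners 13 were higher (median 0.26). At an unadjusted p under 0.05 there was 1 higher, the repressor gene Bach2 at 0.59 (SE 0.24), against 1.28% of all probe sets, and 3 were higher without overlap, against 3.77%. Atf5, a stress response factor, read 9.15, 9.61 and 7.68 after CCL6, against 5.95, 6.43 and 9.05 in unstimulated cells, so that unstimulated replicate 3 lay above CCL6 replicate 3. Bach1 and Mafg differed by 0.40 (SE 0.28) and -0.36 (SE 0.29). Of 17 genes for the decay of AU-rich messages 13 were higher (median 0.13), and 0 had an unadjusted p under 0.05 with limma. In this list 2 were higher without overlap, against 3.77% of all probe sets. The deadenylase gene Cnot6 differed by 0.55 (SE 0.29), and the RNA-binding protein genes Tia1 and Elavl1 by 0.41 (SE 0.25) and 0.35 (SE 0.28). The decapping enzyme gene Dcp2 differed by 0.46 (SE 0.39). On unstimulated replicate 1 the means of these lists were the lowest of the 6 arrays, at 9.16 for AP-1 partners and 11.80 for decay genes. Fos, Junb, Ier2 and Zfp36 were highest on that array. The means of the regulators (10.64) and of the fibroblast (7.36), endothelial (3.53) and leukocyte (3.56) markers were also lowest there. For the other immediate early genes, the proliferation genes and the epithelial markers another array was lowest.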

How the data were processed

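Values came from 1 table with a column per array. The authors deposited log2 values that RMA had background-corrected, normalized across the arrays and summarised to 1 value per probe set. Its version, its software and the genome build of the probe sets are not given in the sources used here, and the log base was taken from the range, 1.93 to 19.2. RMA makes arrays alike, so a change shared by most transcripts would be hidden. Of 22206 probe sets 19572 had 1 gene symbol in the platform annotation and 2634 were unnamed here, and all columns were used. The number of arrays limits the precision.

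CCL6 was compared with unstimulated cells by lmFit and eBayes (limma 3.58.1, R 4.3.3), in a two-sided test. P-values were adjusted by Benjamini-Hochberg over every probe set, and the threshold was 0.05. Probe sets of a gene were averaged for medians and counts of genes. Members and lists were chosen with earlier results of these data known. All members were named, array values of some were added after they were seen, and from other lists up to 4 genes above background with the smallest unadjusted p. Alternatives were 3 normalizations, a filter, an intensity trend, array weights, blocks, the methods' t-test and leaving out each array. Scripts were tested on simulated data. Promoter windows came from RefSeq (GRCm38.p6). Nothing shows that the replicate numbers pair cultures. The p-values set a difference against the spread between these cultures, which limma moderates by the spread of all probe sets.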

Additional observations from a re-analysis of the deposited data

How the results depend on the processing

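No listed gene passed an adjusted p under 0.05 under any alternative (limma, adjusted p of 0.795 to 1). The count of listed probe sets at an unadjusted p under 0.05 was 2, but 1 when only probe sets above background were tested, and 0 by the methods' t-test, by which 1 of all probe sets passed after adjustment. With a block for the high and low sets the count was also 2, but of Ier2 and Srf, since Fos was above the threshold and Srf below it. The sets were drawn from these same values, so the count with this block is a description. The count without overlap was 4 after cyclic loess, against 2. The median difference was -0.12 with a block for the high and low sets, against 0.09. Without 1 array the count at an unadjusted p under 0.05 ran from 0 (unstimulated replicate 1 left out) to 4 (unstimulated replicate 3 left out), the median from -0.10 to 0.10, and the count without overlap from 2 to 11. When an array is left out, groups already apart stay apart and others may separate, so the count without overlap cannot fall. The same count over all probe sets was not analysed here for those fits. Apart from this limit on the count without overlap, the cause of the shifts was not tested.

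Of the 33 probe sets, 21 kept their sign in all 6 fits that left out 1 array and 26 in all other alternatives. With the set block the sign turned for Fosl2 (-0.04), Jun (-0.10), Atf3 (-0.37) and Csrnp1 (-0.16). With array weights it turned for the third probe set of Egr3 (0.04), Nr4a2 (-0.16) and Zfp36l1 (0.06). Leaving out 1 array turned the sign or brought the difference to 0 within these ranges, namely Fosl1 -0.85 to 0.20, Fosl2 -0.05 to 0.41, Jun -0.10 to 0.49, the first probe set of Egr3 -0.03 to 0.28, the third -0.44 to 0.22, Nr4a2 -0.18 to 0.28, Nr4a3 -0.44 to 0.07, Atf3 -0.21 to 0.62, Maff -0.13 to 0.00, Srf -0.60 to 0.00, Csrnp1 -0.04 to 0.93 and Zfp36l1 -0.28 to 0.24.

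Arrays of the same replicate number did not deviate together (r of -0.083, -0.232 and -0.661 over probe sets), so the numbers were not taken as pairs. The replicate block left 2 listed probe sets at an unadjusted p under 0.05 and the median at 0.09, and it changed no call. Probe sets near background, such as those of Egr3, Fosb and Nr4a3, limit what can be read from small differences.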
